A study of Rattus norvegicus with 24 samples.

Results

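Cytosolic ribosomal protein genes were followed in the brain of rats that had breathed halothane or isoflurane, both volatile anaesthetics, again and again. Members were the probe sets whose only gene symbol in the platform annotation begins with Rpl or Rps followed by a digit, a or p, without the Rps6k kinases and without pseudogenes marked ps. Each gene was represented by its probe set with the highest mean signal. The rule gave 42 genes from 61 probe sets, out of 4737 genes with a single symbol on the array: 28 of the large subunit, 12 of the small subunit and 2 of the stalk. All 42 passed the filter on low signals, and 37 lay above the floor of 16.5 on all 24 arrays.

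Total RNA was hybridised to 24 single-colour arrays, 1 per sample. Exposed rats breathed 0.8% halothane or 1% isoflurane for 90 min at a time, 2 times a day with 3 h of recovery between, to a total of 5 exposures over 2.5 days or 10 exposures over 5 days, with 3 arrays for each of the 4 groups. The 12 control arrays came from rats that had 3 min of halothane and were then perfused with ice-cold saline, so the control is a short halothane exposure and not a brain without anaesthetic. The 2 agents were given at different concentrations. Strain, age and sex are not given in the sources used here, nor is it said that each array of a group stands for an animal of its own. The p-values therefore rest on the spread of the arrays within groups, part of which may be technical.

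Ribosomal proteins assemble with ribosomal RNA into a small subunit, which reads the messenger RNA, and a large subunit, which forms the peptide bond. The stalk proteins of the large subunit recruit the translation factors. Messenger RNAs of these proteins begin with a terminal oligopyrimidine tract (TOP), a C followed by a run of C and T, through which mTOR signalling controls their translation, and in many tissues their levels move together. Neurons carry ribosomes in the soma, dendrites and axons, where local translation takes part in synaptic change.

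The start of the transcript was read for 38 of the 42 genes in the RefSeq promoter table of rat build GRCr8. A C at the annotated start base with at least 4 C or T after it was found in 11 of the 38 (28.9%), against 2.63% of the 33469 promoters in the table. With the run allowed to begin anywhere from 30 bases before to 10 bases after the annotated start, 31 of 38 (81.6%) had one, against 48.3% of all promoters. The sequences below are the 30 bases around the annotated start, with 10 bases before it, of the genes on which the results below turn. Capitals mark the run of C and T, beginning with C, that holds the start base, and a sequence without capitals has no such run there.
Rpl14 (chr8:129163610-129163639, plus strand): ggCCCTCTCCCTTCTCgctgagcgccgcca
Rpl24 (chr11:58128386-58128415, minus strand): tagggaggagattctctaccctataaggtg
Rpl26 (chr10:54109682-54109711, plus strand): gtcaacttacagaaccggaagtcgcatgta
Rpl35a (chr11:81235002-81235031, minus strand): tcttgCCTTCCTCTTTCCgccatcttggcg
Rpl39 (chrX:121195877-121195906, minus strand): taatcgcgttCTTCCggcctgtcctttctc
Rpl17 (chr18:70856266-70856295, plus strand): ttcgcgCTTCCTCTTCCTgttagcggccag
Rps10 (chr20:5700725-5700754, minus strand): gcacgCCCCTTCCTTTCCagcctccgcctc
Rps23 (chr2:23814507-23814536, plus strand): ccttcctgCCTCTCTTCTCTCTTTCTCTCg

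Among other short motifs in the 300 bases around the start, searched on both strands, GGGCGG, which Sp1 factors bind, was present in 63.2% of the members' promoters and 33.1% of all. CCGGAAG, the core that ETS factors bind, was in 23.7% against 8.75%, AAGATGGC, the core that YY1 binds, in 10.5% against 3.17%, and TATAAA, which the TATA-binding protein binds, in 13.2% against 14.2%. The window and the motifs were chosen after the sequences had been looked at, and a match is a run of letters and not a measured site.

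The 24 arrays had trimmed means between 150.1 and 150.2 and medians between 53.5 and 64.9, and no 2 arrays held identical values. They fell apart in the signal of the 9 bacterial spike-in probe sets, with a gap of 0.57 log2 units between 9 arrays with a high and 15 with a low signal. The high arrays were controls 1, 3, 10, 11 and 12 and array 3 of each of the 4 exposed groups, so both levels occur in every group. The labels do not say what sets the high arrays apart, and the results below are therefore also given with this level as a term in the fit. Markers of the labelled tissue were measured: the neuron markers Thy1 and Snap25 had mean signals of 3330 and 2908, the myelin gene Mbp 5375 and the astrocyte gene Aldoc 3885, while the neuronal vesicular glutamate transporter Slc17a7 lay at or below the floor on all arrays. In bulk tissue, fewer cells of a type and less RNA per cell cannot be told apart.

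Most members were among the brighter probe sets of the array. The mean signal over all arrays had a median of 1052 over the 42 genes, and ranged from 9.25 to 4966. Signals of different probe sets depend on the probes as well as on the RNA, so the order of the genes by signal is that of probe sets. In the 12 control arrays Rps29, a small zinc-binding protein of the small subunit, ranged from 4438 to 5525 with a median of 4897. Rpl27a had a control median of 2505, Rpl19 of 2139, Rps16 of 1955 and Rps3 of 1799. At the other end were Rplp1l3 with a control median of 6.5, Rpl5 with 9.1, Rpl30 with 16.2, Rps24 with 30.6 and Rpl17 with 28.1. Those 5 are the genes that did not exceed the floor on all arrays: Rpl5 exceeded it on 4 arrays, Rplp1l3 on 5, Rpl30 on 11, Rpl17 on 13 and Rps24 on 15. Rplp1l3, Rpl19l4, Rpl36al1, Rpl3l and Rps27l are copies or relatives of other ribosomal protein genes, and ribosomal protein genes have many processed copies in rodent genomes, so a probe set may also bind RNA of a close relative.

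The members varied less between arrays of a group than all probe sets tested, but not less than the bright ones. The SD of the log2 signal within groups had a median of 0.21 over the 42 genes, against 0.31 over all 7389 probe sets tested and 0.19 over the 327 probe sets at least as bright as the median member. The smallest spread was that of Rpl27a (0.11), Rpl11 (0.12) and Rpl14 (0.13). The largest was that of the dim genes Rpl17 (1.13), Rps24 (1.09) and Rpl30 (0.92).

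After 10 exposures to halothane most ribosomal protein genes stood slightly above control, but none passed the test. Of the 42 genes, 36 had a log2 fold change above 0, with a median of 0.14, while 43.7% of all 7389 probe sets did, with a median of -0.03. The 6 below 0 were Rpl17, Rpl3l, Rps24, Rpl5, Rpl30 and Rplp1l3, of which all but Rpl3l are the dim genes named above, and among the 37 brighter genes 36 were above 0 with a median of 0.15. The members' mean signals had a median of 1052, against 58.9 for all values of the table. The shares over all probe sets, here and below, are therefore not matched for brightness. Whether other bright probe sets moved in the same direction was not tested. limma called 0 members at an adjusted p under 0.05, against 3 probe sets in all (0.0406%). At an unadjusted p under 0.05, 4 members were higher and 0 lower, against 3.38% of all probe sets higher and 4.14% lower. Both subunits showed this: 24 of 28 large subunit genes and 11 of 12 small subunit genes were above 0, with medians of 0.14 and 0.15. The 95% interval held 0 for 38 of the 42 genes, and the median half-width of the intervals was 0.29, so smaller differences were not resolved gene by gene.

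**Figure D1:**
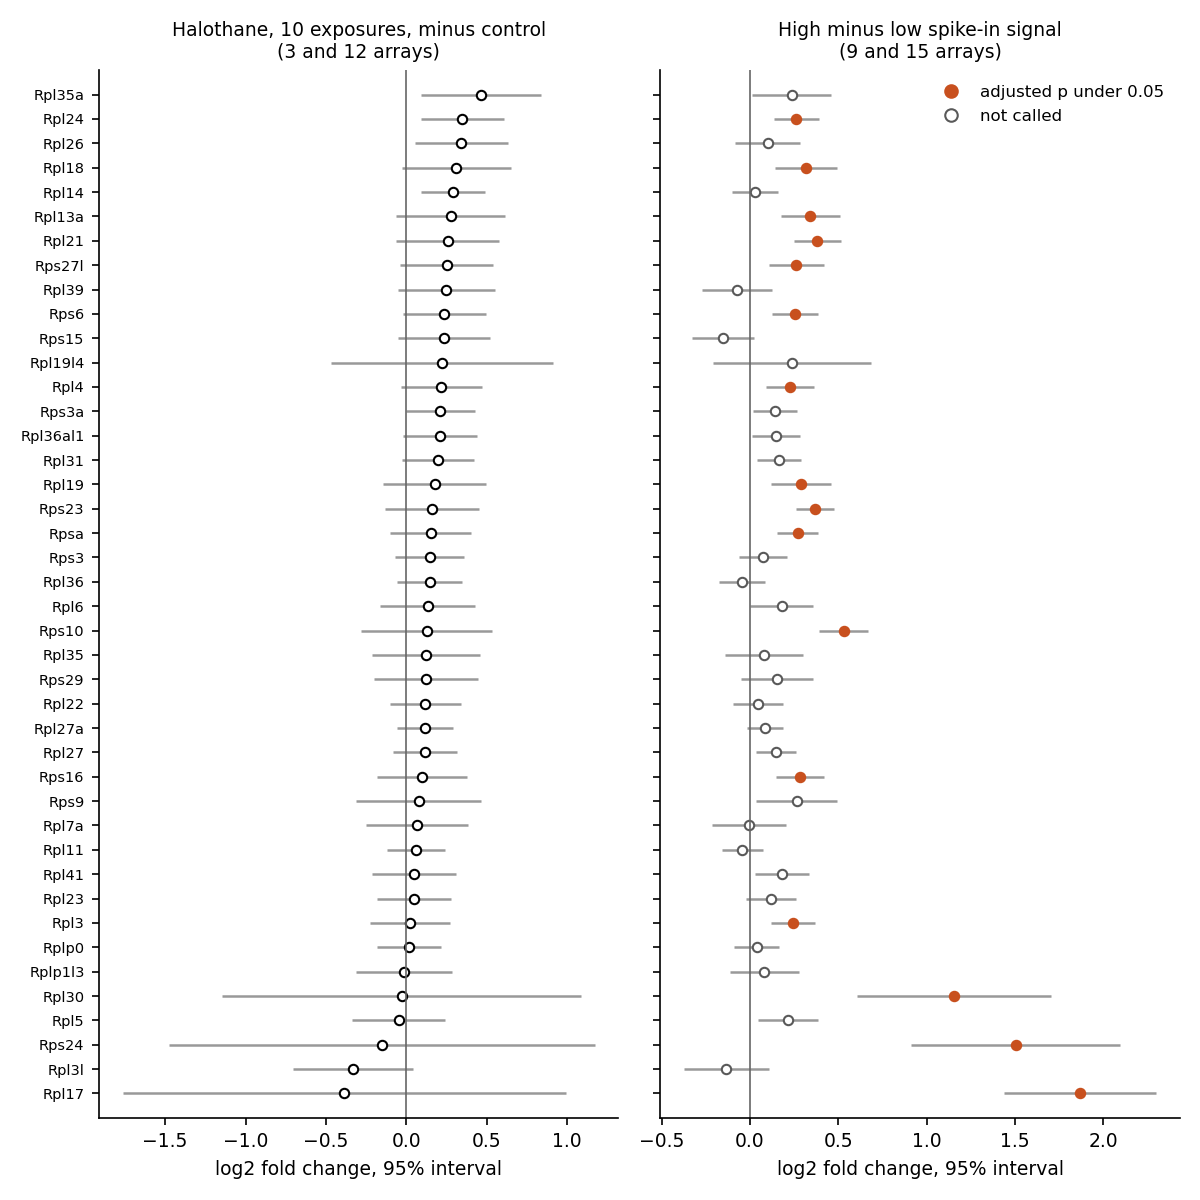
Log2 fold change of each of the 42 genes (circles) with its 95% interval (lines), for 10 exposures to halothane minus control on the left and for arrays with a high minus a low spike-in signal on the right, in the same order of genes. On the left 36 genes lie right of 0 and none is called; on the right 16 genes are called (orange), and the dim genes Rpl17, Rps24 and Rpl30 have the widest intervals.

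Rpl14, a protein of the large subunit, had the lowest p. Its signal was 375, 368 and 398 on the 3 halothane arrays, and between 273 and 344 with a median of 318 on the 12 controls. All 3 exposed arrays were above every control array, which was so for 0.595% of all probe sets. The mean was 380.4 ± 15.5 (SD, n = 3) after halothane and 311.9 ± 22.3 (SD, n = 12) in control. limma gave a log2 fold change of 0.29 ± 0.095 (SE) and an adjusted p of 0.42.

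Rpl24, which forms a bridge between the subunits, measured 1993, 1983 and 2244 after halothane and between 1311 and 1962, with a median of 1606, in control. The groups did not overlap, and the log2 fold change was 0.35 ± 0.13 (SE) with an adjusted p of 0.48. Rpl26, a large subunit protein that also binds p53 messenger RNA, measured 1668, 1579 and 1818 against control values between 1043 and 1496 with a median of 1342. These groups did not overlap either, with a log2 fold change of 0.34 ± 0.14 (SE) and an adjusted p of 0.57. Rpl35a, a large subunit protein, had the largest difference of the 42 genes, 0.46 ± 0.18 (SE) with an adjusted p of 0.53. Its signals were 784, 797 and 1034 against control values between 522 and 811, so only the third array lay above the control range. Rpl14, Rpl24 and Rpl26 were the only members with all 3 arrays above the control range, 3 more had 2 arrays above it, 16 had 1 and 20 had 0.

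**Figure D2:**
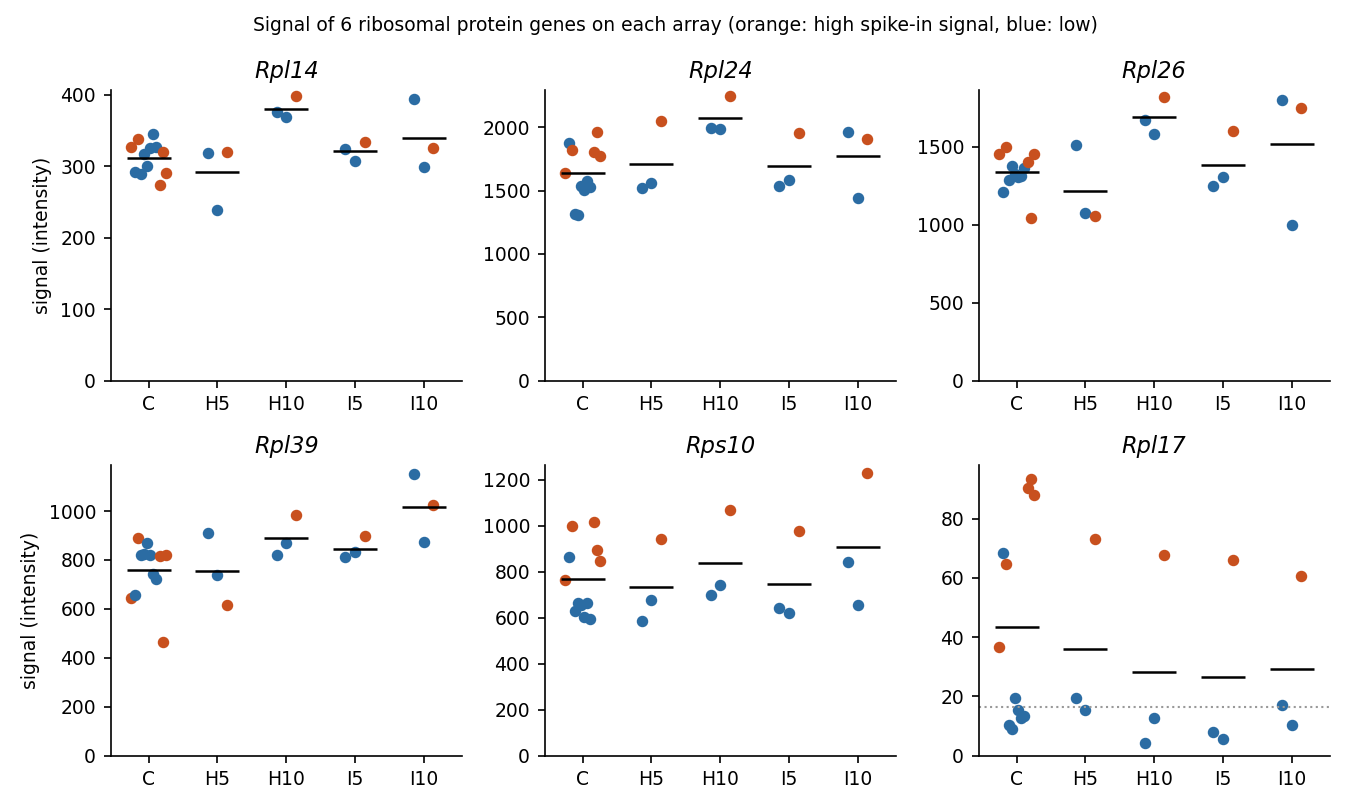
Signal (linear intensity, axis from 0) of 6 genes on each array, by group: C control, H5 and H10 halothane with 5 and 10 exposures, I5 and I10 isoflurane; black bars are group means, and the dotted line in the panel of Rpl17 is the floor of 16.5. The 3 halothane arrays with 10 exposures lie above all controls for Rpl14, Rpl24 and Rpl26, while Rps10 and Rpl17 are highest on array 3, with its high spike-in signal (orange; low blue), in each exposed group.

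The difference was uneven over the 3 halothane arrays. The median deviation of the 42 genes from their control means was 0.0014 on array 1, 0.11 on array 2 and 0.35 on array 3, the last being the array with a high spike-in signal. Control arrays ranged from -0.14 to 0.18. Without array 3 the median log2 fold change was 0.09 and 29 genes were above 0, and without array 1 the median was 0.21. With the spike-in level as a term, 37 genes were above 0 with a median of 0.15, and 14 members had an unadjusted p under 0.05 against 4.44% of all probe sets, but again 0 were called, and the lowest adjusted p was 0.14 for Rpl24. Among arrays with a low spike-in signal only, the median was 0.12.

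**Figure D3:**
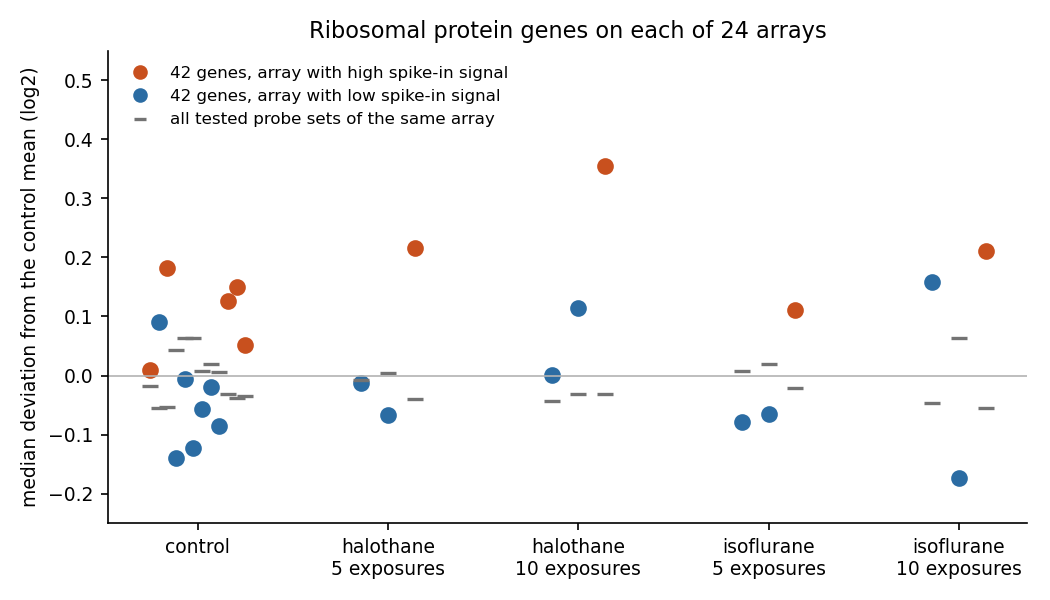
Median over the 42 genes of the log2 deviation from the control mean, for each of the 24 arrays by group; circles are coloured by spike-in level, and grey dashes give the same median over 7389 probe sets. Array 3 of each exposed group, orange, is the highest of its group, at 0.22, 0.35, 0.11 and 0.21.

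A second probe set of the same gene is another measurement on the same arrays, and 16 members had one. The second probe sets of Rpl26 and Rpl24 were also higher after 10 halothane exposures, with log2 fold changes of 0.32 and 0.18. The closest pairs were those of Rpsa (0.15 and 0.16), Rpl35 (0.12 and 0.14) and Rps3 (0.15 and 0.13). The widest apart were Rpl3l (-0.33 and 0.41), the 4 probe sets of Rpl21 (from -0.15 to 0.38) and Rpl6 (0.13 and -0.16). The second probe set of Rpl3l had a mean signal of 24.3 and that of Rpl21 with the highest value 29.9, both close to the floor.

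**Figure D4:**
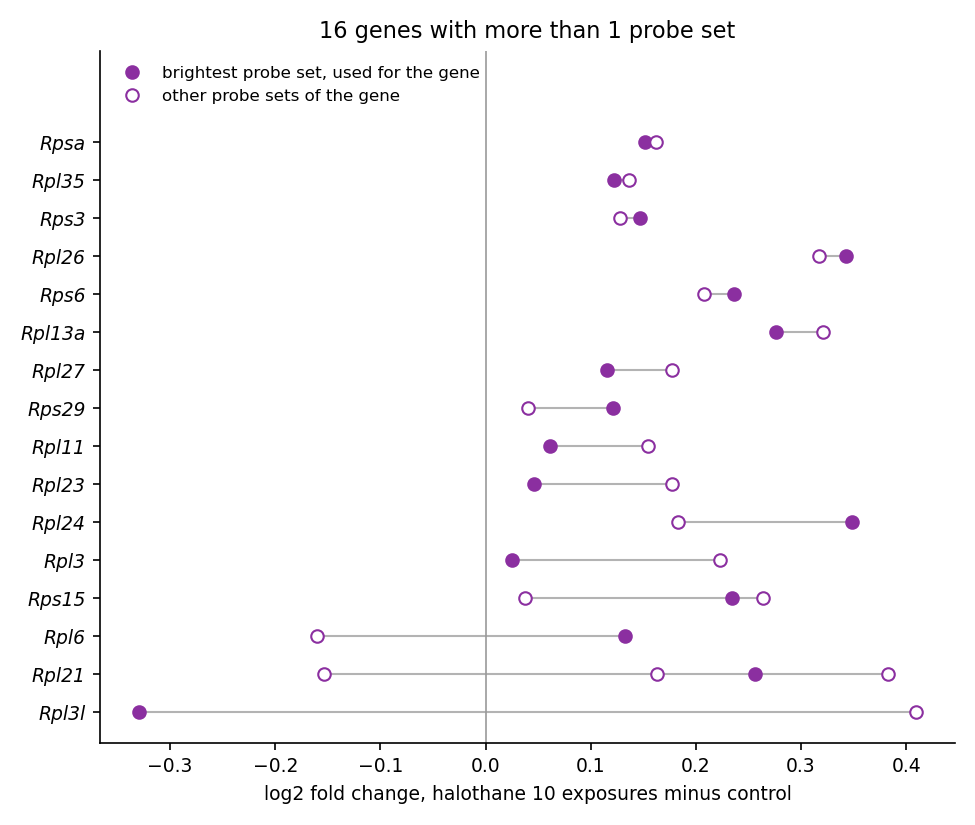
Log2 fold change, 10 exposures to halothane minus control, of every probe set of the 16 genes that have more than 1, ordered by the distance between them; filled circles are the probe sets used for the genes. In 13 genes all probe sets lie right of 0, and in Rpl6, Rpl21 and Rpl3l they lie on both sides.

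A further 39 tested probe sets carry several symbols, at least 1 of them ribosomal, and are no members since their gene is not settled. Of these, 37 were above 0 after 10 halothane exposures, with a median of 0.20, against 43.7% of all probe sets. An unadjusted p under 0.05 was found for 15, against 3.38% of all probe sets higher and 4.14% lower. limma called 0, against 0.0406% of all probe sets. Genes with a C at the annotated start base and at least 4 C or T after it had a median of 0.20 (11 genes). The other 27 genes had 0.13, and some of them, such as Rps10 and Rps23, have a run that begins before the start base and holds it. Both medians are given as a description.

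The other 3 exposed groups were closer to control. After 5 exposures to halothane 24 of 42 genes were above 0 with a median of 0.03, against 48.1% of all probe sets, limma called 0 members against 0.0135% of all probe sets, and 0 members had an unadjusted p under 0.05, against 1.65% of all probe sets higher and 1.88% lower. The lowest p was that of Rpl5, a large subunit protein that carries 5S ribosomal RNA, but only 1 array (32.5) lay above the floor and the others read 6.6 and 1.6, against control values between 2.7 and 20.6. Its log2 fold change of 0.28 thus rests on that array, and the adjusted p was 1. Rpl35 and Rps9 had log2 fold changes of -0.30 and -0.31, each through array 2 alone. Rpl35 read 1191, 554 and 1386 against controls between 1031 and 1361, and Rps9 read 1215, 542 and 1488 against controls between 1024 and 1606. Array 2 also read below all controls for other members, among them Rps29 (2622 against 4438 to 5525), Rpl35a (370 against 522 to 811) and Rpl14 (238 against 273 to 344). On that array 13 of the 42 genes were above their control mean, and the median deviation was -0.067. Rplp1l3 had 0.21 with all but 1 exposed array under the control maximum of 24.4. With the spike-in level as a term 27 genes were above 0 with a median of 0.05, and 1 member was higher at an unadjusted p under 0.05, against 2.08% of all probe sets.

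After 5 exposures to isoflurane 17 of 42 genes were above 0 with a median of -0.04, against 51.5% of all probe sets. limma called 0 members and 0% of all probe sets, and 0 members had an unadjusted p under 0.05, against 1.14% of all probe sets higher and 1% lower. The lowest p values were those of Rpl36al1 (-0.19), Rpl27a (-0.14), Rpl30 (-0.80) and Rpl23 (-0.14), all with an adjusted p of 1. Rpl27a read 2466, 2174 and 2277 against control values between 2261 and 2985, so that 1 array fell below the control range. The value of Rpl30 depends on the floor, since its 3 isoflurane arrays (9.3, 12.6 and 13.3) all lie under it and were set to it. Its controls ranged from 8.3 to 93.6 with a median of 16.2, so the difference comes from the control arrays above the floor. Under settings other than leaving 1 array out it ran from -1.27 to -0.22. With the spike-in level as a term 21 genes were above 0 with a median of -0.0098, and 1 member was higher at an unadjusted p under 0.05, against 1.35% of all probe sets.

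After 10 exposures to isoflurane 27 of 42 genes were above 0 with a median of 0.04, against 49.5% of all probe sets, and limma called 0 members and 0% of all probe sets. A single member, Rpl39, had an unadjusted p under 0.05, and it was higher, against 4.47% of all probe sets higher and 4.59% lower. Rpl39, a very small protein that lines the exit tunnel of the large subunit, measured 1152, 872 and 1024 after isoflurane, and between 465 and 891 with a median of 818 in control. Arrays 1 and 3 lay above all controls and array 2 within their range. The mean was 1016 ± 140.0 (SD, n = 3) after isoflurane and 757.8 ± 121 (SD, n = 12) in control. limma gave a log2 fold change of 0.43 ± 0.15 (SE) and an adjusted p of 0.37. Rps3a (0.19), Rps15 (0.25) and Rpl31 (0.19) followed, with adjusted p between 0.59 and 0.63. The 3 isoflurane arrays differed widely: the median deviation of the 42 genes was 0.16 on array 1, -0.17 on array 2 and 0.21 on array 3. Without array 2 the median log2 fold change was 0.12 and without array 3 it was -0.02. With the spike-in level as a term 29 genes were above 0 with a median of 0.05. Then 5 members (Rpl39, Rpl21, Rps10, Rps3a and Rpl31) were higher at an unadjusted p under 0.05, against 5.43% of all probe sets, 0 were called, and the lowest adjusted p was 0.26 for Rpl39.

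**Figure D5:**
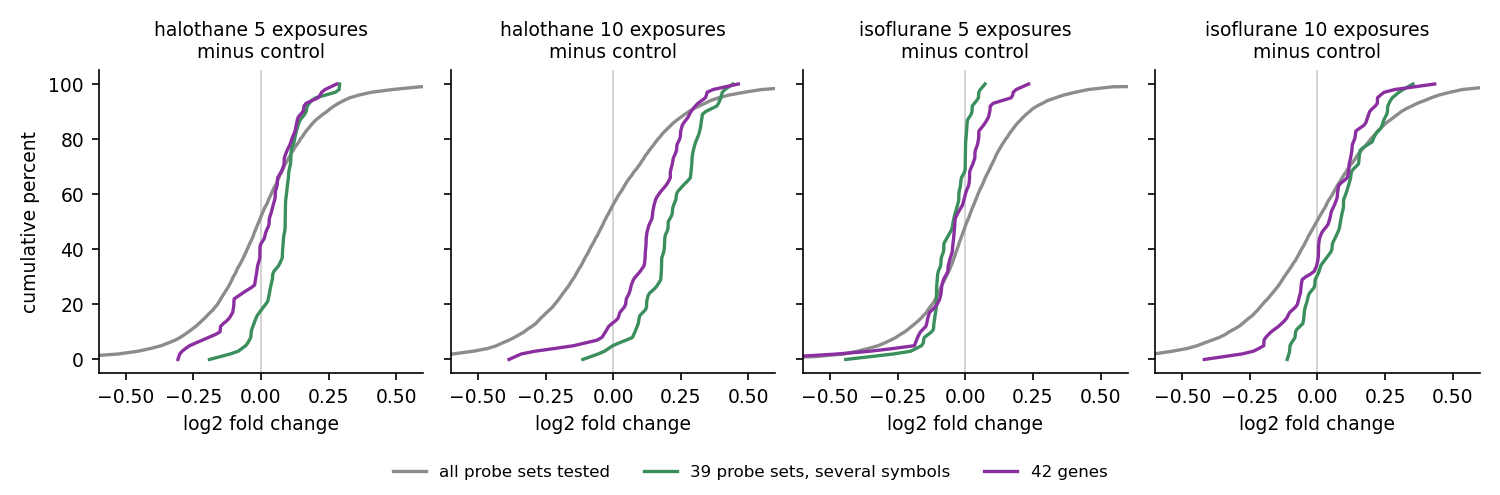
Cumulative distribution of log2 fold changes (horizontal axis, shown from -0.6 to 0.6) against control in the 4 exposed groups, for the 42 genes, the 39 ribosomal probe sets with several symbols and all 7389 probe sets. The 42 genes lie farthest to the right of all probe sets after 10 exposures to halothane, with medians of 0.14 and -0.03.

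All 4 of these comparisons use the same 12 control arrays. With the 4 exposed groups averaged, 28 of 42 genes were above 0 with a median of 0.05, against 46.9% of all probe sets, and limma called 0 members and 0% of all probe sets. Rpl39 had the lowest p, with a log2 fold change of 0.21 ± 0.092 (SE) and an adjusted p of 0.52, followed by Rpl21 with 0.18 and an adjusted p of 0.63. Rpl39 was the single member with an unadjusted p under 0.05, against 4.03% of all probe sets higher and 4.41% lower. With the spike-in level as a term 30 genes were above 0 with a median of 0.07, 6 members were higher at an unadjusted p under 0.05 against 5.12% of all probe sets, 0 were called, and the lowest adjusted p was 0.21.

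Comparisons between exposed groups asked whether the number of exposures or the agent mattered, and none called a member. With 10 against 5 exposures of halothane 32 genes were higher with a median of 0.11 (all probe sets 45.6%, with 0.0135% called), and 3 members were higher at an unadjusted p under 0.05, against 1.85% of all probe sets higher and 1.91% lower. The lowest p values were those of Rpl14, 0.39 with a 95% interval from 0.14 to 0.64, and of Rpl26, 0.49 from 0.13 to 0.86, both with a limma adjusted p of 1. For Rpl14 the signals were 318, 238 and 320 after 5 exposures and 375, 368 and 398 after 10. The value of 238 was on array 2, which also read low for other members as given above. The median over the genes was 0.013 without the third array after 10 exposures and 0.21 without the first. With 10 against 5 exposures of isoflurane 31 genes were higher with a median of 0.07 (all probe sets 47.8%, with 0% called), and 1 member, Rps3a, was higher at an unadjusted p under 0.05, against 1.41% of all probe sets higher and 1.6% lower. Rps3a, a small subunit protein, differed by 0.30, with a 95% interval from 0.03 to 0.57. Next came Rpl36al1 with 0.23 from -0.06 to 0.52. These intervals leave out the pairing of same-numbered arrays. With array number as a term in the fit, the interval of Rps3a ran from 0.04 to 0.56. Rps10 then came next with 0.26 from -0.0032 to 0.53. The median over the genes was 0.0028 without the third array after 10 exposures and 0.19 without the second.

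The agents were set against each other at the same number of exposures and at the unequal concentrations given above. At 5 exposures 28 genes were higher with halothane, with a median of 0.05 (all probe sets 46.6%, with 0.0135% called), and 0 members had an unadjusted p under 0.05, against 1.39% of all probe sets higher and 1.58% lower. Rpl23 (0.27, from -0.02 to 0.57) and Rpl5 (0.33, from -0.04 to 0.69) had the lowest p. The median was -0.0012 without halothane array 3 and 0.14 without halothane array 2. At 10 exposures 37 genes were higher with halothane, with a median of 0.10 (all probe sets 45.6%, with 0% called). A single member was higher at an unadjusted p under 0.05, against 1.2% of all probe sets higher and 1.91% lower. That member was Rpl27a, a large subunit protein near the peptidyl transferase centre. Rpl27a, at 2666, 2746 and 2851 with halothane and 2429, 2250 and 2349 with isoflurane, differed by 0.23, with a 95% interval from 0.01 to 0.45. It was followed by Rpl22 with 0.26 from -0.02 to 0.54, and the limma adjusted p was 1 for both. These intervals leave out the pairing of same-numbered arrays. With array number as a term in the fit, the interval of Rpl27a ran from 0.03 to 0.44. Rpl41 then came next with 0.25 from -0.0070 to 0.50, and the interval of Rpl22 ran from -0.10 to 0.62. Without halothane array 3 the median over the genes was -0.0061, and without isoflurane array 2 it was 0.01. The interaction of agent and exposure number had a median of 0.0084 with 22 genes above 0 (all probe sets 48.7%, with 0% called). At an unadjusted p under 0.05 there were 0 members, against 1% of all probe sets higher and 1% lower. The lowest p values were those of Rpl14 (0.32, from -0.03 to 0.68) and Rpl5 (-0.44, from -0.95 to 0.08). With the spike-in level as a term the medians between exposed groups were the same, since each group holds 1 high array, and 0 members were called. The members higher at an unadjusted p under 0.05 were then 5 for 10 against 5 halothane exposures (2.42% of all probe sets), 2 for isoflurane (1.72%), 1 between the agents at 5 exposures (1.88%), 1 at 10 (1.49%) and 0 for the interaction (1.3%).

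Many ribosomal protein genes were higher on arrays with a high spike-in signal, in a comparison with more arrays (9 against 15) than those of an exposed group with control. This comparison was added after the data had been seen, and the arrays were divided by the spike-in probe sets alone. With the 5 groups as terms, limma called 16 of the 42 members higher on the 9 high arrays and 0 lower, against 7.67% of all probe sets higher and 12.3% lower. Of all calls, 567 were higher and 909 lower with the deposited scaling, 681 and 778 after quantile normalization, and 823 and 587 after median centring, under which 16 and 21 members were called higher and 0 lower. In all 36 members were above 0, against 41.8% of all probe sets, with medians of 0.18 and -0.05. Called were 9 of 28 large subunit genes and 7 of 12 small subunit genes, and 0 stalk genes.

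Rps10, a small subunit protein, had a median of 979 (762 to 1230) on the 9 high arrays and of 654 (586 to 862) on the 15 low arrays. Of the low arrays 13 lay below all high arrays, and the log2 difference was 0.53 ± 0.068 (SE) with an adjusted p of 1.09e-05. Rps23, which lies at the decoding centre, had a median of 1669 (1478 to 1901) against 1264 (1140 to 1562), a difference of 0.37 ± 0.052 (SE) with an adjusted p of 3.0e-05, and 14 low arrays lay below all high arrays. Rpl21 differed by 0.38 with an adjusted p of 0.00021. Rpl17, a large subunit protein near the exit tunnel, had a median of 67.9 (36.6 to 93.5) against 12.7 (4.2 to 68.5), and its difference of 1.87 ± 0.21 (SE) on floored values (adjusted p 2.5e-06) was the largest of the 42. The single low array that overlapped the high ones in Rpl17 was control 2, with 68.5. Rps24 and Rpl30, also dim, differed by 1.50 and 1.15, with overlapping groups. The remaining 10 called members were Rpsa, Rps16, Rpl24, Rpl13a, Rpl3, Rps6, Rpl18, Rps27l, Rpl19 and Rpl4, with differences between 0.23 and 0.34. Of the genes that led the comparisons with control, Rpl24 was called (0.26, adjusted p 0.0042), while Rpl14 (0.03), Rpl26 (0.10) and Rpl39 (-0.07) were not.

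The same direction was seen in controls and exposed groups apart. Among the 12 control arrays alone 3 members were called higher with a median of 0.13, against 1.54% of all probe sets. Among the 12 exposed arrays alone 9 were called higher with a median of 0.21, against 5.12% of all probe sets. In each group with 5 exposures, and after 10 exposures to halothane, 30 of the 42 genes had their highest signal on array 3, and after 10 exposures to isoflurane 21 did so on array 3 and 20 on array 1. These counts were not made over all probe sets, so they only describe the members. The median deviation over all probe sets went the other way from that of the members, from -0.05 to -0.02 on the high arrays. The log2 ratio of the 3' to the 5' probe set of beta-actin, a measure of RNA integrity and labelling, ranged from 0.51 to 0.72 on the high arrays and from 0.44 to 1.10 on the low ones. On the high arrays 4 of 14 neuron markers were above 0 with 1 called higher and 4 lower, among them Snap25 (-0.53, adjusted p 2.2e-05), and the summed neuron markers ranged from 12386 to 15434 there and from 15511 to 17111 on the low arrays. Of the 8 oligodendrocyte markers 1 was above 0 and 3 were called lower. Of the 7 astrocyte markers Aldoc (0.23) and S100b (0.27) were called higher, and Gja1 (-0.99) and Slc1a3 (-0.24) lower. No marker of microglia, endothelium, choroid plexus, blood or pituitary was called. These counts stand against 7.67% of all probe sets called higher and 12.3% lower. The part of RNA quality, hybridisation or tissue composition in the members' difference was not tested.

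Other genes of the translation machinery were taken from lists. After 10 halothane exposures limma called 0 genes of any of these lists, against 0.0406% of all probe sets, so 0 calls do not set the lists apart. The counts above 0 stand against 43.7% of all probe sets. Of 17 initiation factors 13 were above 0 with a median of 0.10, led by Eif2s1 (0.25, adjusted p 0.59) and Paip1 (0.26, adjusted p 0.74). Of 10 other genes with TOP messenger RNAs 7 were above 0 with a median of 0.13, led by the histone chaperone Nap1l1 (0.37, adjusted p 0.53) and the elongation factor Eef1a1 (0.32, adjusted p 0.66). Of 4 elongation and release factors, a list that shares genes with the last, 3 were above 0, with Eef1g at 0.19. Mitochondrial ribosomal proteins, which serve the organelle's own ribosome, had 10 of 14 above 0 with a median of 0.16, with Mrpl58 at 0.29 and Mrpl52 at -0.33. Genes of the mTOR and S6 kinase pathway had 5 of 15 above 0 with a median of -0.12, led by the mTOR activator Rheb (0.22, adjusted p 0.53) and the kinase Akt1 (-0.21, adjusted p 0.69). Ribosome biogenesis had 5 of 10 above 0, with the RNA polymerase I subunits Polr1b at -0.47 and Polr1d at 0.33. The integrated stress response had 3 of 8 above 0, with the kinases Eif2ak2 at 0.37 and Eif2ak1 at -0.39, and the aminoacyl tRNA synthetases 3 of 5, with Vars1 at -0.29 and Tars1 at 0.11.

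Between the spike-in levels the calls went in both directions, against 7.67% of all probe sets called higher and 12.3% lower. On the high arrays limma called 3 of 10 other TOP genes higher (Ybx1 at 1.06, Eef2 at 0.28 and Rack1 at 0.22) and 0 lower, and 1 of 17 initiation factors higher and 4 lower. Of 4 elongation and release factors Eef1a2 (0.61) and Eef2 were called higher. Of 15 genes of the mTOR pathway Pik3r2 (0.49) was called higher, and Rictor (-0.39) and Rps6kb1 (-0.37) lower. Ddit3 (-0.53) was the single stress response gene called, and Kars1 (0.28) the single tRNA synthetase. Called were 0 of 14 mitochondrial ribosomal proteins and 0 of 10 biogenesis genes in either direction (1 gene of each had an unadjusted p under 0.05).

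Markers of cell types were also examined after 10 halothane exposures against control, where limma called 0 of them, against 0.0406% of all probe sets. Their counts above and below 0 stand against 43.7% of all probe sets above 0. All 8 oligodendrocyte markers were below 0 with a median of -0.23, and their summed signal was 8344 to 11475 against 8869 to 12917 in control. All 6 tested blood markers were below 0 with a median of -0.44, with Hbb-b1 at -1.15, and summed to 485 to 510 against 599 to 1071. Choroid plexus markers were above 0 in 7 of 9, with Ttr at 0.42 and Enpp2 at 0.47, and summed to 5338 to 8081 against 4093 to 6048. Astrocyte markers were above 0 in 6 of 7, neuron markers in 6 of 14, microglia markers in 6 of 9, endothelial markers in 2 of 8 and pituitary markers in 2 of 8, where Pou1f1 lay at or below the floor on all arrays. Their part in the difference of the ribosomal protein genes was not tested.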

How the data were processed

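The authors deposited linear intensities of 8799 probe sets, which were already scaled to nearly the same trimmed mean (2% trimmed) on all 24 arrays. The software and the detection calls are not given in the sources used here. This scaling was kept. Values below 16.5, the 25th percentile of the table, were set to it and log2 was taken of the deposited intensities, so differences of dim genes are understated. The 59 control probe sets stayed out. A test was made for the 7389 others that exceeded the floor on 3 or more arrays. Symbols came from the platform annotation, and of the 42 members 41 were found in a current rat gene table by Entrez identifier.

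All arrays entered 1 linear model of the 5 groups in limma 3.58.1 (R 4.3.3), with two-sided moderated tests and a prior variance that follows intensity. Adjusted p-values are Benjamini-Hochberg over the 7389 probe sets, and a call is an adjusted p under 0.05. Intervals are 95%, and their median half-width was 0.29 for members against control. The number of arrays limits the precision. In a test on simulated data for 10 halothane exposures on 7389 probe sets, 26% of changes of 0.5 log2 units, 90% of changes of 1 and 100% of changes of 2 were called. Changes were placed only in probe sets with a mean more than 2 log2 units above the floor. Arrays were drawn independently, without spike-in levels or paired array numbers, so the shares hold for that setting. Of the unchanged probe sets 8 were called.

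Members, lists and comparisons were chosen with earlier results of these data known. The text names, for each exposed group against control, the 4 members with the lowest p and those with all exposed arrays outside the control range; for other comparisons the 2 with the lowest p; the 5 highest and lowest by control level; the 3 with the largest and smallest spread; the 3 closest and widest sets of probe sets; and 2 genes per pathway list. The members, pathway genes and markers named between spike-in levels, and a few other markers, were chosen after their values were seen. Same-numbered arrays correlated above 0.1 in 20 of 30 pairs, but in 4 of the 12 with control. All 3 pairs did for halothane 10 with isoflurane 10, halothane 10 with isoflurane 5, halothane 5 with isoflurane 10, and isoflurane 5 with isoflurane 10, which by the rule used counts as pairing there. The main fit has no term for array number. For halothane 10 against isoflurane 10 and for isoflurane 10 against isoflurane 5, leading genes are also given with that term. Promoter sequences were searched with Python 3.11.15. Alternatives covered scaling, floor, filter, spread, weights, blocks, left-out arrays and the choice of probe set.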

Additional observations from a re-analysis of the deposited data

How the results depend on the processing

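In all 10 comparisons between the study's groups limma called 0 members under each of the 42 alternatives, or 41 for the mean of the 4 exposed groups. The median over the members after 10 halothane exposures stayed above 0, from 0.09 to 0.21 with 1 array left out and from 0.07 to 0.18 otherwise. Its lowest value, 0.07, came with the replicate block, which changed no call in any comparison; array numbers did not pair exposed arrays with controls. The median deviation of single arrays had an SD of 0.13 within groups. The median after 10 halothane exposures, 0.14, comes from differences between means of 3 and 12 arrays. It cannot be set directly against that SD of single arrays, and array 1 of that group stood at 0.0014. The other medians between the study's groups were smaller, and their signs are not settled. No test was made of the sign of any median. After 5 halothane exposures the median ran from -0.06 to 0.11, and after 5 isoflurane exposures from -0.07 to 0.02. After 10 isoflurane exposures it ran from -0.02 to 0.12, and for all exposed groups it was -0.04 without array 3 of each. With 1 array left out the median ran from 0.013 to 0.21 for 10 against 5 halothane exposures, from 0.0028 to 0.19 for isoflurane, from -0.0012 to 0.14 between the agents at 5 exposures, from -0.0061 to 0.18 at 10, and from -0.087 to 0.11 for the interaction. At 10 exposures, the median between the agents was 0.02 with array weights.

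After 5 halothane exposures 4 single genes changed sign: Rpl35 (0.11) and Rps9 (0.13) without array 2, Rpl5 (-0.046) and Rplp1l3 (-0.075) without array 3 or without array 3 of every exposed group, and Rplp1l3 (-0.081) on low spike-in arrays only. With 1 array left out, Rpl35 ran from -0.56 to 0.11, Rps9 from -0.60 to 0.13, Rpl5 from -0.046 to 0.44 and Rplp1l3 from -0.075 to 0.36. None of the 4 was called in any setting. Members called higher on high spike-in arrays numbered 16 to 20 with 1 array left out, 14 to 21 in other settings over all or nearly all arrays, and 3 and 9 on control and exposed arrays alone, where fewer arrays were tested. The share of all probe sets called higher ran from 1.54% on control arrays alone to 11.1% after median centring, and was 5.12% on exposed arrays alone. Rpl21 (0.28, adjusted p 0.10) was not called on control arrays alone. Small differences are out of reach at this number of arrays, and genes near the floor have differences that depend on it.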
